A study of Homo sapiens with 6 samples.

Results

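The virus restriction genes OAS1, OAS2, OAS3, OASL, MX1, MX2, BST2, RSAD2 and SAMHD1, whose products act inside the cell or at its surface, were followed in A375 cells after knockdown of UBE2S. A375 is an established human melanoma cell line, and UBE2S is the E2 enzyme that lengthens the ubiquitin chains begun on substrates of the anaphase-promoting complex. The members were the probe sets whose single gene symbol in the array annotation is one of these 9 symbols, 24 of 49293 probe sets and 9 of 18132 genes. The genes were picked with the knockdown against control difference already known, so that difference is described here for them and not tested. Where a member or its probe set is said below to pass a threshold, that describes its size against its spread and is not a test. The groups compared were 3 biological replicates with lentiviral short hairpin RNA against UBE2S (spelled UEB2S in most labels) and 3 control replicates, each measured on 1 Affymetrix array. No other allele or agent is labelled. What the control cells received, how many hairpins were used and how long after transduction RNA was taken are not given in the sources used here.

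These genes belong to the antiviral program that interferons switch on. Interferon binding to its receptor activates Janus kinases and a transcription factor complex that contains IRF9, which binds interferon-stimulated response elements in promoters. The OAS enzymes sense double-stranded RNA and make short oligoadenylates that set off RNA decay, whereas OASL has no such catalytic activity and acts on RNA sensing. MX1 and MX2 are large GTPases related to dynamin, BST2 (tetherin) ties budding virions to the cell surface, RSAD2 (viperin) is a radical SAM enzyme that makes a chain-terminating nucleotide, and SAMHD1 breaks down deoxynucleoside triphosphates.

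All values are deposited log2 expression with a median of 0 over the 6 arrays in each probe set. This leaves differences between arrays but no exact level. Only a coarse signal class, explained below, could be read from the rounding, and signal over background cannot be read. Where the groups of a probe set do not overlap, centring puts 0 midway between the lowest array of the upper group and the highest of the lower group. A value for a gene is the mean over its probe sets, and differences are knockdown minus control with the moderated standard error (SE) of limma. The number of arrays limits the precision. UBE2S stood at -1.13, -1.05 and -1.01 in the knockdown arrays, against 1.06, 1.01 and 1.01 in the control arrays, a difference of -2.09 (SE 0.043). Array medians lay between -0.009 and 0.004 and array SDs between 0.174 and 0.183. With all 6 arrays in limma, 40.1% of genes passed an adjusted p of 0.05, 21.4% higher and 18.6% lower, so a pass by itself is common on these arrays. Hybridization spike-in probe sets were 0.168 higher in the knockdown arrays than in the control arrays and poly-A spike-ins 0.098 higher, both without overlap, and the 3' to 5' difference of the ACTB control probe sets was 0.191 higher. Their part in the results below was not tested. In bulk RNA, a change in the share of cells that express a gene and a change in RNA per cell cannot be told apart. Of 15 measured blood cell markers 1 rose, the lysosomal protein CD68 (0.40, SE 0.038, adjusted p 7.85e-05 in limma), and 0 fell (0 also unadjusted), with a median of 0.042. The mean over the 15 ran from -0.0024 to 0.039 in knockdown arrays and from -0.04 to -0.0041 in control arrays. For 6 of the 15, among them PTPRC, CD3D, MS4A1 and CD14, every probe set was of the lowest signal class explained below. Of 8 measured melanocyte and melanoma markers, S100B (1.09) and TYRP1 (0.22) rose and MITF fell (-0.72), and 7 had a probe set above that class. The exception was TYRP1, which also did not pass with hybridization spike-in centring (0.056). Of 23 background control probe sets 13 were of the lowest class, so a class above it does not show signal over background. Neither centred values nor the class can show whether a marker is expressed.

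Promoter windows of 6 of the 9 members were found in the RefSeq table for GRCh38.p14 (OAS1, OAS3, MX1, BST2, RSAD2 and SAMHD1), each from 250 bases before an annotated start to 50 after it. They are shown because the 9 genes are grouped as interferon-stimulated genes, and the window is where a response element would be looked for. Capitals mark the interferon-stimulated response element motif GAAANNGAAA on either strand or, in windows without it, its shorter core AANNGAAA on either strand. Overlapping matches were counted, and every 10-base match also holds the 8-base core.
MX1, first annotated start, chr21:41420308-41420607, plus strand: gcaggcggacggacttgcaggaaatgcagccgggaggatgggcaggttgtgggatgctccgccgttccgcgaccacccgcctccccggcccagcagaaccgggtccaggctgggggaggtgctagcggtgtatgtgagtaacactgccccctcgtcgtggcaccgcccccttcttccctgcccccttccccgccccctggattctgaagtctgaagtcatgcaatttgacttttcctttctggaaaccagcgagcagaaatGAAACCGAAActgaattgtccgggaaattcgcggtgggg
BST2, chr19:17405581-17405880, minus strand: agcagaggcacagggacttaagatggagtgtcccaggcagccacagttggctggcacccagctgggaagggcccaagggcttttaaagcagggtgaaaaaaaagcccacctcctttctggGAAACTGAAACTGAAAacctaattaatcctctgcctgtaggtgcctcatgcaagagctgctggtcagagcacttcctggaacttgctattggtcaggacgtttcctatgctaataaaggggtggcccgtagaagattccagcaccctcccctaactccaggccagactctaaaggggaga
OAS1, chr12:112906712-112907011, plus strand: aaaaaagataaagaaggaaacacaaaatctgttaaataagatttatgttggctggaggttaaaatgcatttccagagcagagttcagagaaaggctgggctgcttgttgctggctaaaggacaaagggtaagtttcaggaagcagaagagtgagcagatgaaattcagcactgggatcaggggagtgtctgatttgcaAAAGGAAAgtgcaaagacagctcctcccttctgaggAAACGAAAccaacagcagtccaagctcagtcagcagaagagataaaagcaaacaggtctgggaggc
OAS3, chr12:112938224-112938523, plus strand: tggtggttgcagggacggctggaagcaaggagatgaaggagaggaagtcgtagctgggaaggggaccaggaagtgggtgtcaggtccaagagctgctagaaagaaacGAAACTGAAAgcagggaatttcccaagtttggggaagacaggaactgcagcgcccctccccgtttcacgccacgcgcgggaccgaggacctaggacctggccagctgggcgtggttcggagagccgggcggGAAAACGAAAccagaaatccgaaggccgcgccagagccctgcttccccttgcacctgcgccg
RSAD2, first annotated start, chr2:6865635-6865934, plus strand: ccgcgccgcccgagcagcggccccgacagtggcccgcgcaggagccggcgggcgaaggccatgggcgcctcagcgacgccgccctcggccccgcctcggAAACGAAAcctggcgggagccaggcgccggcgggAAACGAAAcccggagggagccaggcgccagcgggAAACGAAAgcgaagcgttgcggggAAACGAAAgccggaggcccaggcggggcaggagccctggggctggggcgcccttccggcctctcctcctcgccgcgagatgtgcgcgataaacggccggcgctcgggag
SAMHD1, chr20:36951659-36951958, minus strand: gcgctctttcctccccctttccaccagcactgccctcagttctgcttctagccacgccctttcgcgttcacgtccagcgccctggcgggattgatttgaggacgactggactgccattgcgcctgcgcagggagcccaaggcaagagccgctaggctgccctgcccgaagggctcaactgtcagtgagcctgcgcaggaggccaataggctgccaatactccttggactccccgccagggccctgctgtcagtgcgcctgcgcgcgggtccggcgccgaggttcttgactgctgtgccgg
The 10-base motif was found in 3.57% of all 34796 promoter windows of this length, and the 8-base core in 22.9%. BST2 held 2 overlapping copies of the 10-base motif, OAS3 held 2 separate copies and the first MX1 window held 1. In OAS3 they began at positions -143 and -12, and in BST2 at -130 and -124, counted from 0 at the annotated start. The OAS1 window held none but had 2 copies of the core, and the first RSAD2 window had 4 copies of the core. A second RSAD2 window and another MX1 window held 1 copy of the 10-base motif each, and the remaining MX1 window held 2 copies of the core. The SAMHD1 window held no copy of either. A match is a string of letters, and no match says only that these letters are not in this window.

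**Figure D1:**
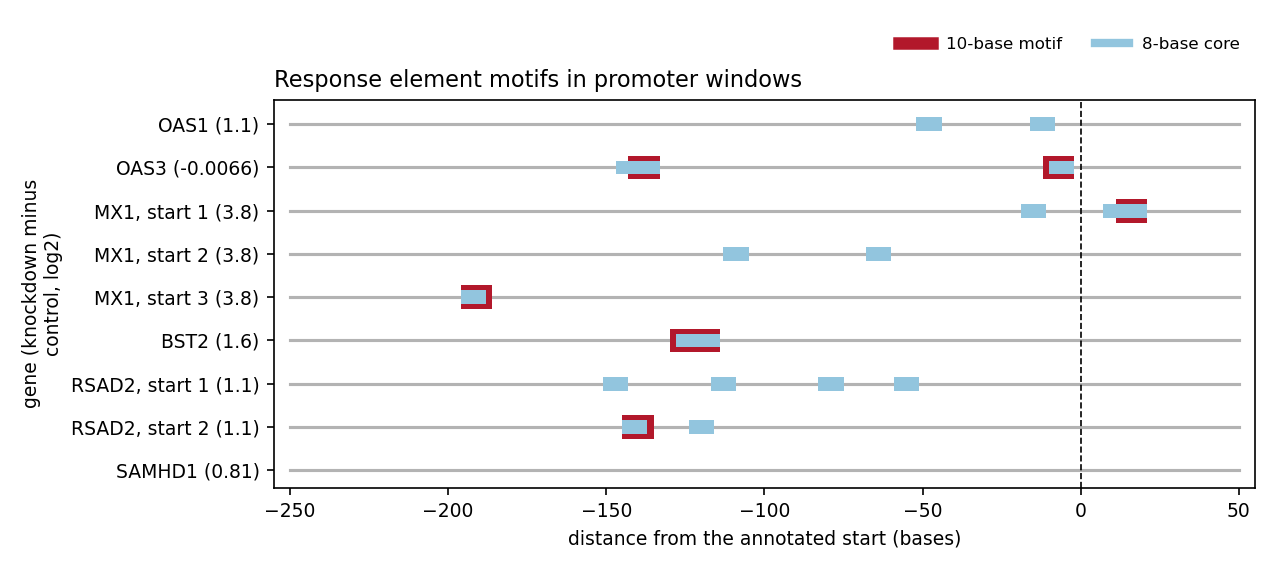
Position of the 10-base motif (red) and its 8-base core (blue) in the promoter windows of 6 members, in bases from the annotated start (dashed line). The log2 difference of each gene stands in brackets. OAS3, at -0.0066 from 1 probe set, has 2 copies of the 10-base motif, and SAMHD1, at 0.81, has none. Probe sets assigned to both OAS2 and OAS3, with differences of 0.47 and 0.23, are not in the OAS3 value.

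Of the 9 genes, 7 had all their knockdown values above all their control values, as did 26.2% of all genes. The same 7 passed the limma threshold in the upward direction, against 21.4% of all genes, and 0 passed downward (0 also at an unadjusted p of 0.05), against 18.6%. Since the members were picked on this contrast, nothing is read from these counts. MX1, BST2, RSAD2 and OAS1 were at least 2-fold higher, a size reached by 0.529% of all genes. Of these 4, MX1 alone stayed above 2-fold in every setting that gave it a value. MX1 has 1 probe set and no value with unshared probe set names only, so the choice of probe sets could not move it. OAS1 fell short when either set of spike-ins gave the centre (0.91 for hybridization, 0.98 for poly-A), RSAD2 with hybridization spike-in centring (0.93) and without the lowest signal class (0.82), and BST2 with unshared probe set names only (0.84). The median difference of the 9 genes was 0.86, and that of all genes was -0.0038. Ordered by size, MX1 had the 2nd largest rise of 18132 genes, BST2 the 14th, RSAD2 the 72nd, OAS1 the 79th, OAS2 the 178th, SAMHD1 the 218th and OASL the 1489th. OAS3 and MX2 lay near 0.

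**Figure D2:**
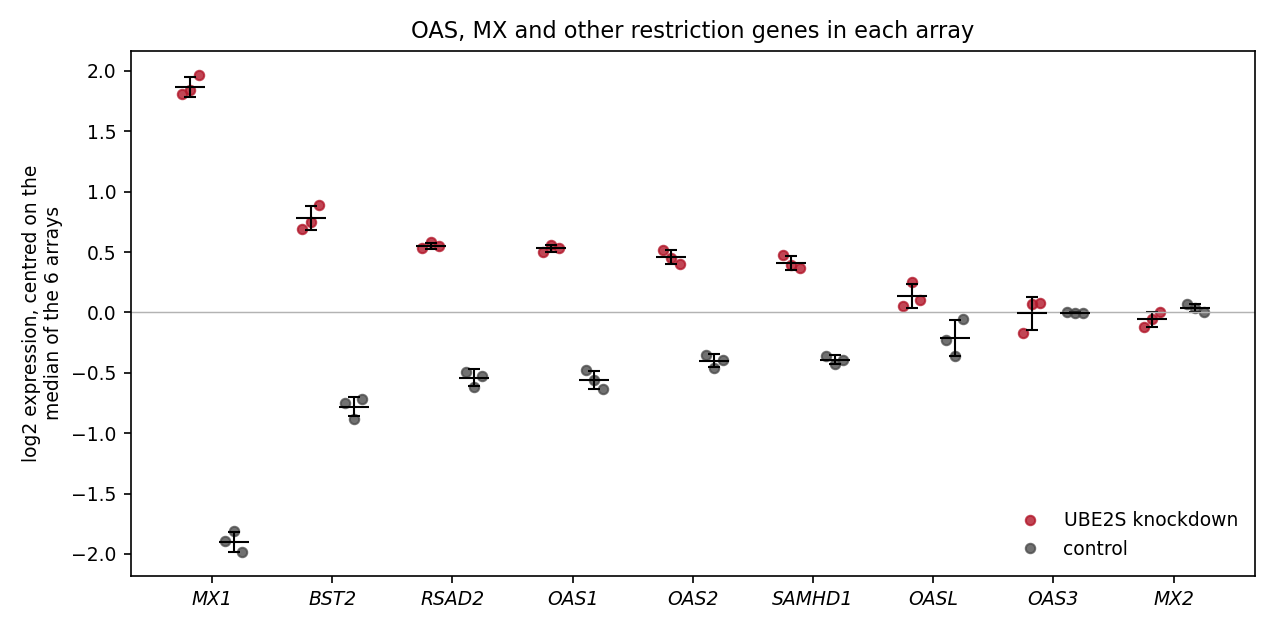
Centred log2 expression of the 9 genes in each array, with UBE2S knockdown in red to the left and control in grey to the right. Points are arrays, black lines the mean and bars the SD (n = 3 each). MX1 lies between 1.81 and 1.97 in knockdown arrays and between -1.98 and -1.81 in control arrays, while OAS3 and MX2 stay near 0.

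Among the sensors of double-stranded RNA, OAS1, the smallest of the catalytic OAS enzymes, stood at 0.50, 0.56 and 0.53 in the knockdown arrays, against -0.48, -0.56 and -0.63 in the control arrays. The groups were far apart, with a gap of 0.97 between the lowest knockdown and the highest control array. The difference was 1.08 (SE 0.047), or 2.12-fold. All 4 probe sets of OAS1 were higher in knockdown arrays without overlap, and they differed in size. The largest difference, 1.62 (SE 0.047), came from a probe set at 0.80, 0.78 and 0.78 in knockdown arrays, against -0.78, -0.89 and -0.84 in control arrays. The others gave 1.33, 0.95 and 0.42.

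OAS2, whose protein carries a pair of OAS units, stood at 0.52, 0.45 and 0.40 in the knockdown arrays, against -0.35, -0.46 and -0.39 in the control arrays. The groups did not overlap, and the difference was 0.86 (SE 0.047), or 1.81-fold. Its 5 probe sets were all higher without overlap, with differences of 1.87, 0.87, 0.71, 0.43 and 0.42. In the widest of them the knockdown arrays gave 0.95, 0.88 and 0.88 and the control arrays -0.88, -1.06 and -0.95. In another, of the lowest signal class, knockdown replicate 3 lay at 0.16, apart from 0.73 and 0.68 in the other knockdown arrays, against -0.16, -0.41 and -0.44 in control arrays.

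OAS3, the largest member of the family, with a tandem of OAS units, was read by 1 probe set of its own. It stood at -0.17, 0.069 and 0.077 in the knockdown arrays, against 0.0015, -0.0032 and -0.0015 in the control arrays. The control arrays lay inside the range of the knockdown arrays, and the difference was -0.0066 (SE 0.066). Knockdown replicate 1 was the low array, and without it the difference was 0.074. Probe sets assigned to both OAS2 and OAS3 are not in this value. They were higher by 0.47 and 0.23 without overlap and are described near the end. In the RefSeq gene table OAS3 lies between OAS1 and OAS2 on chromosome 12, with no other protein-coding gene between them. Its 2 copies of the 10-base motif are shown in the sequence above.

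OASL, also on chromosome 12 but apart from the other OAS genes, stood at 0.057, 0.25 and 0.10 in the knockdown arrays, against -0.23, -0.36 and -0.057 in the control arrays. The groups were separated by only 0.11, and within each group the arrays spread more widely than that. The difference was 0.35 (SE 0.081), or 1.27-fold, from 1 probe set. It was 0.18 when hybridization spike-ins set the centre of each array and 0.25 with poly-A spike-ins, and passed the threshold with neither.

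MX1, a GTPase that blocks influenza and other viruses, stood at 1.81, 1.84 and 1.97 in the knockdown arrays, against -1.89, -1.81 and -1.98 in the control arrays. Each group was tight (SD 0.082 in both, n = 3 each) and the gap between them was 3.63. The difference of 3.77 (SE 0.058), or 13.6-fold, was the largest of the 9, and among all genes IFIT1 alone exceeded it, at 3.89. MX1 was read by 1 probe set, so no second one measures its size.

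MX2, which lies next to MX1 on chromosome 21 and acts against HIV-1 and herpesviruses, stood at -0.12, -0.051 and 6.3e-05 in the knockdown arrays, against 0.072, 0.036 and 0.0067 in the control arrays. The groups were separated by 0.0067 only, with knockdown lower, and the difference was -0.096 (SE 0.043). Of its 2 probe sets, 1 overlapped between the groups (difference -0.057) and the other did not (-0.14, SE 0.043). That probe set alone of the 24 passed the threshold downward, and it no longer passed when any 1 of the arrays other than knockdown replicate 3 was left out, 5 in all. With hybridization spike-in centring MX2 stood at -0.26 and OAS3 at -0.17, and both then passed the threshold downward, as MX2 did with poly-A spike-ins (-0.19).

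BST2, the membrane tether of budding virions, stood at 0.69, 0.75 and 0.89 in the knockdown arrays, against -0.75, -0.88 and -0.72 in the control arrays. The groups were 1.42 apart, and the difference was 1.56 (SE 0.062), or 2.96-fold. This mean joins unlike probe sets. Of these, 3 gave 2.50, 2.07 and 1.73, all without overlap, while the 4th, annotated to another transcript record than the other 3, stood at -0.067, -0.063 and 0.11 in knockdown arrays, against 0.11, -0.04 and 0.04 in control arrays, and overlapped (difference -0.041). The 4th was of the lowest signal class. The BST2 difference was 2.10 without the probe sets of that class and 2.50 with the probe set of largest variance alone. It was 0.84 (SE 0.065) with only the probe sets whose names mark no sharing between transcripts, which are the 1.73 and the -0.041 probe sets.

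RSAD2, which blocks viral replication, stood at 0.53, 0.58 and 0.55 in the knockdown arrays, against -0.49, -0.62 and -0.53 in the control arrays. The groups were 1.02 apart, and the difference was 1.10 (SE 0.044), or 2.14-fold. Both probe sets were higher without overlap (1.37 and 0.82). CMPK2, a mitochondrial nucleotide kinase and the neighbour of RSAD2 on chromosome 2, rose by 0.56 (SE 0.056, adjusted p 0.0001 in limma).

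SAMHD1, which limits retroviral reverse transcription by lowering deoxynucleotide pools, stood at 0.48, 0.39 and 0.37 in the knockdown arrays, against -0.36, -0.43 and -0.39 in the control arrays. The groups were 0.73 apart, and the difference was 0.81 (SE 0.043), or 1.75-fold. Of its 4 probe sets, 3 gave 1.11, 1.07 and 0.76 with tight replicates. In the 4th the knockdown arrays gave 0.46, 0.14 and 0.0068 and the control arrays -0.0068, -0.10 and -0.14, a gap of 0.014, and its difference of 0.28 (SE 0.11) did not pass the threshold. That difference was 0.16 without knockdown replicate 1, 0.12 with hybridization spike-in centring and 0.38 without knockdown replicate 3, where it passed upward.

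Over the 24 probe sets, 21 did not overlap between the groups, as 48.2% of all probe sets did not. Of these, 20 had knockdown above control (25.0% of all probe sets) and 1 below (23.3%). Past the limma threshold were 20 of the 24, against 36.9% of all probe sets, 19 of them upward, against 19.5% of all probe sets, and 1 downward, against 17.4%. At least 2-fold higher were 10 of the 24, where 0.74% of all probe sets were. The rounding of the deposited values gives a signal class, set by the lowest array of a probe set. It was high (8 to 16 on the log2 scale before centring), middle (from 4) or low (from 2). Where control arrays are the lower ones they set the class, so class and difference are not independent. Of the member probe sets 3 were high, 18 middle and 3 low. The high class probe sets read OAS3 (-0.0066), MX2 (-0.057) and OAS2 (0.71). The middle class ran from -0.14 to 3.77 and the low class from -0.041 to 1.37.

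**Figure D3:**
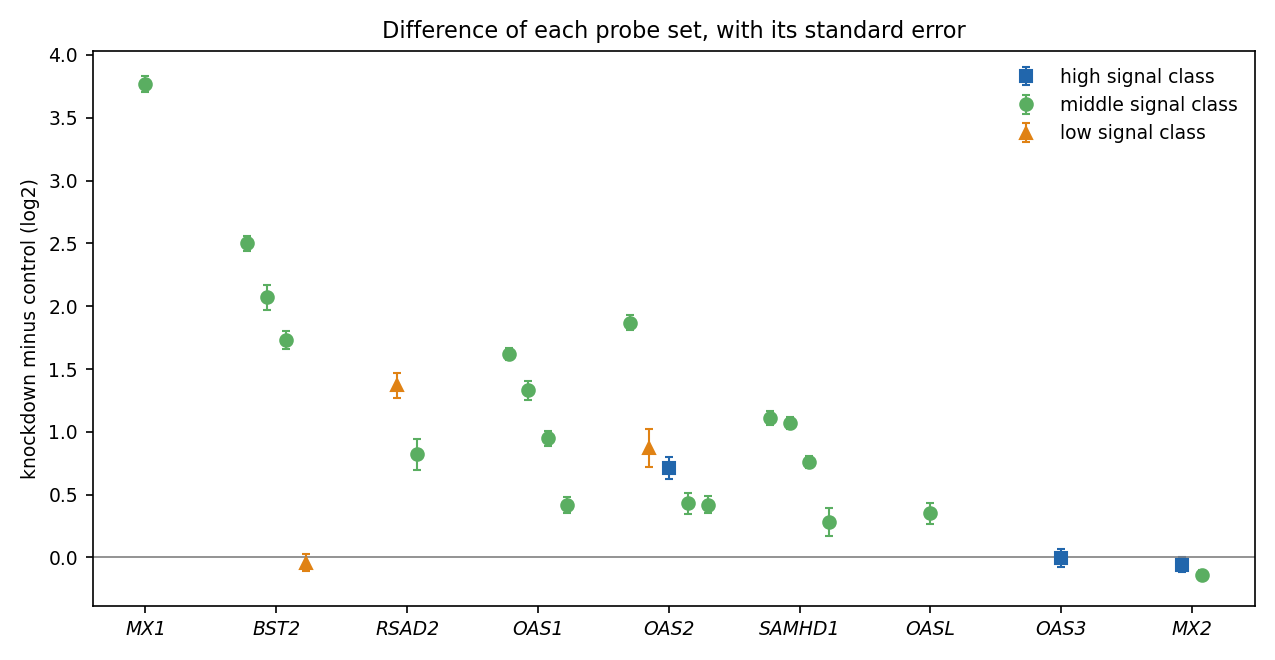
Knockdown minus control difference (log2) of each of the 24 probe sets, grouped by gene, with bars for the limma standard error and symbols for the signal class. Differences within a gene spread from 0.42 to 1.87 for OAS2 and from -0.041 to 2.50 for BST2.

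The mean over the 7 higher genes was 0.66, 0.69 and 0.69 in the knockdown arrays, against -0.65, -0.73 and -0.67 in the control arrays. Control replicate 2 was the lowest control array for 5 of the 7 genes, and the highest knockdown array was replicate 2 for 3 genes and replicates 1 and 3 for 2 genes each. SDs over 3 arrays were between 0.027 and 0.14 in knockdown arrays and between 0.0024 and 0.15 in control arrays over the 9 genes.

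The genes nearest in pattern were found by the root mean square difference of the 6 gene values. Nearest to the mean profile of the 9 members were S100B (0.026), a calcium-binding melanoma marker, SAT1 (0.035), an enzyme of polyamine breakdown, PBXIP1 (0.04), IER3IP1 (0.04) and AFAP1L2 (0.042). Since centred values of 2 tight groups depend mostly on the size of the difference, this measure finds genes with a like difference. IFI16, a nuclear DNA sensor, was nearest to both SAMHD1 (0.019) and OAS2 (0.04), and stood at 0.48, 0.41 and 0.37 in knockdown arrays, against -0.36, -0.39 and -0.42 in control arrays. S100B was nearest to OAS1 (0.031) and RSAD2 (0.033), MUC15 to BST2 (0.065), and GRHL1 to OASL (0.046). IFIT1, at 1.82, 1.85 and 1.95 in knockdown arrays, against -1.98, -2.24 and -1.82 in control arrays, was nearest to MX1 but less close (0.189). KMO lay nearest to OAS3 (0.015) and ADGRD1 to MX2 (0.013).

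Of 12 IFIT, IFITM and IFI genes 11 rose and 0 fell (0 also at an unadjusted p of 0.05), with a median difference of 1.04, led by IFIT1 (3.89, SE 0.097, adjusted p 2.07e-07), which binds viral RNA lacking a methylated cap, IFI6 (3.05, SE 0.039) and the membrane protein IFITM1 (2.45, SE 0.05). With hybridization spike-in centring 1 of the 12 passed downward. Of 5 measured genes of ISG15 conjugation 4 rose and 0 fell (0 also unadjusted), with a median of 1.07. IFIT2 (-0.059, adjusted p 0.426) and UBA7 (0.095, adjusted p 0.107) did not pass, and both are named after their values were seen. ISG15, the ubiquitin-like modifier, rose by 2.20 and its ligase HERC5 by 1.08, as did the related HERC6 (1.07). All adjusted p-values here and below come from limma over 18132 genes. Of all genes 21.4% rose and 18.6% fell at the same threshold. The lists were chosen with earlier results of these data known, so their p-values describe the genes and are not independent tests.

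Upstream, 10 of 16 measured genes of interferon receptors, Janus kinases, STAT and IRF factors rose and 2 fell, with a median of 0.24. The shares over all genes were 21.4% and 18.6%. IRF9 rose by 2.03 (SE 0.07, adjusted p 5.93e-07) and IRF7, which amplifies interferon production, by 1.51 (SE 0.076). IFNLR1, the receptor chain for lambda interferons, rose by 0.51, while the interferon gamma receptor IFNGR1 (-0.30) and the factor IRF1 (-0.24) fell. With hybridization spike-in centring 4 of the 16 passed downward. Of 17 measured interferon genes 0 rose in limma, 1 at an unadjusted p of 0.05, and 1, IFNE, an interferon of epithelia, fell (-0.53, SE 0.068, adjusted p 0.000409), with a median of 0.0056. Without knockdown replicate 3 or without control replicate 1 1 of them rose, and without knockdown replicate 2 those that fell numbered 2. With hybridization spike-in centring 11 of the 17 passed downward, and with poly-A spike-ins 4. For 15 of the 17 every probe set was of the lowest signal class. IFNB1, named after its values were seen, stood at 0.10, 0.065 and -0.026 in knockdown arrays, against 0.026, -0.10 and -0.16 in control arrays (0.13, SE 0.058, adjusted p 0.127). The groups overlapped.

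Of 19 sensors and adaptors of foreign nucleic acid 8 rose and 3 fell, with a median of 0.038. For these and the lists that follow, the shares over all genes were 21.4% higher and 18.6% lower. RIGI, the sensor of short viral double-stranded RNA, rose by 1.79 (SE 0.046), the DNA sensor AIM2 by 1.18 (SE 0.036) and IFI16 by 0.81, while the adaptors MAVS (-0.24) and MYD88 (-0.17) and the sensor ZBP1 (-0.14, adjusted p 0.0492) fell. With hybridization spike-in centring 8 of the 19 passed downward, and with poly-A spike-ins 5. The ZBP1 call was lost when any 1 array other than control replicate 1 was left out. Of 7 measured brakes on interferon signalling 2 rose, the cytokine suppressor CISH (0.21) and the phosphatase PTPN11 (0.13), and 1 fell, the phosphatase PTPN2 (-0.48, SE 0.049). Neither CISH (0.041) nor PTPN11 (-0.035) passed with hybridization spike-in centring, and PTPN11 did not pass without knockdown replicate 1 or 3 or control replicate 1 or 2. Of 3 measured genes of the oligoadenylate pathway, PDE12, which degrades the oligoadenylates, rose by 0.29 (adjusted p 0.000999) and ABCE1, a ribosome recycling factor that inhibits the pathway, fell (-0.51, adjusted p 3.56e-05). AKAP7 did not pass.

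Of 24 other virus restriction factors measured, 8 rose, 4 fell and 12 did not pass, where 21.4% of all genes rose and 18.6% fell. Their median was 0.067 and their range from -0.80 to 0.63, and 10 passed downward with hybridization spike-in centring and 7 with poly-A. SERINC3, which lowers the infectivity of retroviral particles, rose by 0.63 (SE 0.035), the RNA helicase MOV10 by 0.58 and the GTPase GBP2 by 0.54. SLFN11, a tRNA-cleaving factor, fell (-0.80, SE 0.036, adjusted p 2.1e-06), as did the cytidine deaminases APOBEC3C (-0.43) and APOBEC3B (-0.26). Around SAMHD1, 6 of 12 measured enzymes of deoxynucleotide supply fell and 3 rose, with a median of -0.15. DUT, which removes dUTP, fell (-0.51), as did the nucleotide kinase CMPK1 (-0.39) and the ribonucleotide reductase subunit RRM2 (-0.38), while the mitochondrial thymidine kinase TK2 rose by 0.74, CMPK2 by 0.56 and the reductase subunit RRM2B by 0.51. Of 9 measured dynamin relatives of the MX proteins, 4 rose and 3 fell, between -0.43 for the mitochondrial fission protein DNM1L and 0.38 for DNM3. The counts in each of these lists stand against the same shares of all genes. Differences between these lists and the 9 members were not tested.

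**Figure D4:**
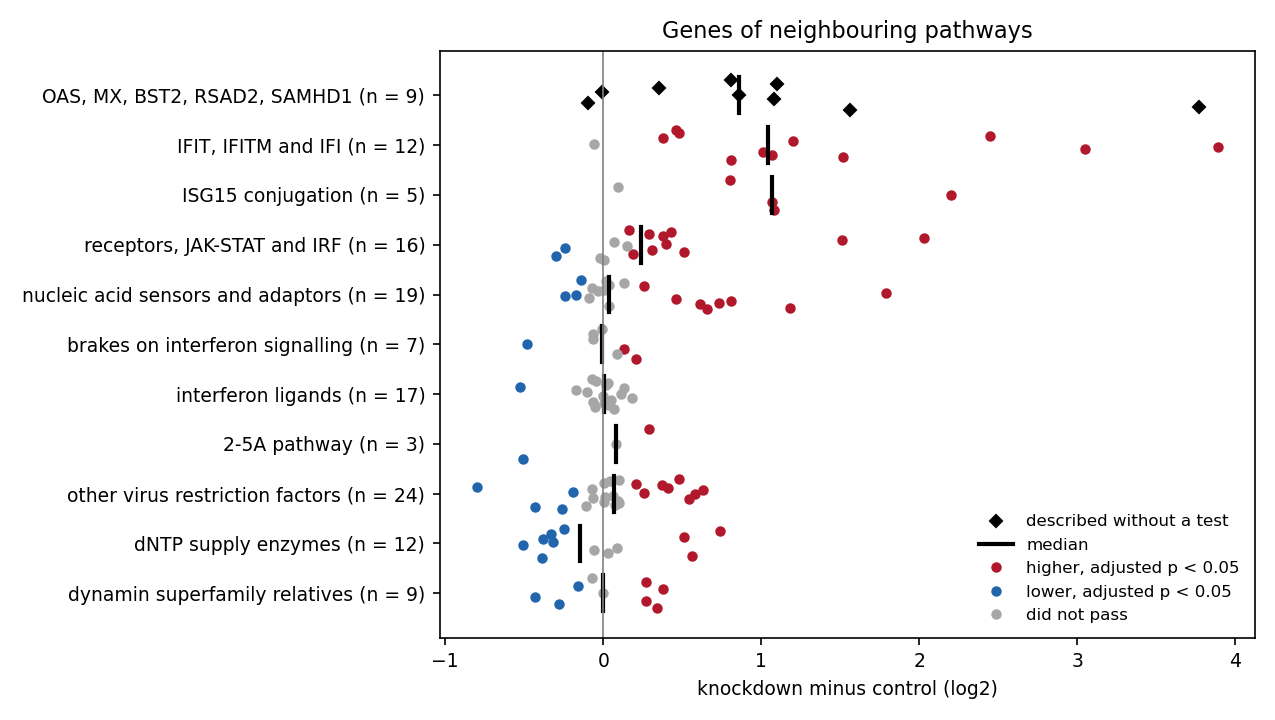
Knockdown minus control difference (log2) of each measured gene in 10 lists of neighbouring pathways, below the 9 restriction genes, which are drawn in black without a test. Red and blue points passed an adjusted p of 0.05 in limma, grey points did not, and black bars are medians. Effector and ISG15 genes centre near 1, and interferon ligands near 0.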

How the data were processed

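Expression was measured on 6 Affymetrix arrays of A375 cells, 3 with UBE2S knockdown and 3 controls. The deposited values are log2, and per the submitters' processing notes affy, RMA and limma were used. No versions, genome build or centring step are given in the sources used here, and the centring was read from the values, since each probe set has a median of 0 over the 6 arrays (largest absolute median 4.85e-07).

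Of 49293 probe sets besides 102 controls, 44988 had 1 gene symbol in the array annotation, 1832 several and 2473 none. A gene was the mean of its single-symbol probe sets. Differences were fitted without a block by limma 3.58.1 (lmFit, then eBayes) under R 4.3.3, and p-values were two-sided and adjusted by Benjamini-Hochberg over 18132 genes or 49293 probe sets, with a threshold of 0.05. In a simulation of 18132 genes, 50 were changed at each size, and 50% of log2 changes of 0.25 were recovered, 88% of 0.5 and 100% of 1. Far fewer genes were changed there than passed in the data, which alters the adjustment. These shares therefore do not measure recovery in this comparison. The labels name biological replicates but no culture or day, so p-values measure the spread between these samples. Replicate pairs differed with an SD of 0.125 to 0.144, and no 2 arrays were copies.

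The members and lists were chosen with earlier results of these data known. Named were all members, UBE2S, CMPK2, up to 3 passing genes a direction in each list, and the genes nearest in pattern. A further gene in that rule is not analysed here. Signal classes came from the rounding steps of single-precision values. Alternatives were other probe set choices, centrings, weights, variance models, the replicate block and leaving out each array.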

Additional observations from a re-analysis of the deposited data

Results flagged for a closer look

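The annotation assigns 2 probe sets to both OAS2 and OAS3, and these were left out of the gene values because they do not have a single symbol. Both differed between the groups. They are counted in the shares of all 49293 probe sets but enter no gene or member value above. The first stood at 0.30, 0.17 and 0.30 in knockdown arrays, against -0.27, -0.17 and -0.19 in control arrays, a difference of 0.47 (SE 0.055). The second stood at 0.13, 0.15 and 0.089 in knockdown arrays, against -0.097, -0.13 and -0.089 in control arrays, a difference of 0.23 (SE 0.044). Neither overlapped between the groups, and both were of the middle signal class. How much of either comes from OAS2 and how much from OAS3 cannot be told apart, and the OAS3 value above rests on the other probe set alone.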

How the results depend on the processing

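With hybridization spike-in centring the median of all genes was -0.171, with 1764 higher and 9196 lower (10960 in all, against 7266 and a split of 3888 higher and 3378 lower as reported). With poly-A spike-ins the median was -0.102, with 2486 higher and 6297 lower. The member median was 0.69 and 0.76 under these, against 0.86. MX1, BST2, RSAD2, OAS1, OAS2 and SAMHD1 passed upward under both, and OASL under neither. Passing downward with hybridization spike-ins were 2 members, 3 member probe sets, 4 receptor and signalling genes, 11 ligands, 3 brakes, 8 sensors, 1 IFIT group gene, 10 other restriction factors and 5 dynamin relatives, while 0 brakes and 2 dynamin relatives passed upward, and PTPN11 turned to -0.035. Passing downward with poly-A spike-ins were 1 member, 4 ligands, 3 brakes, 5 sensors and 7 other factors, and 0 brakes passed upward. The cause was not tested.

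With unshared probe set names only, fewer genes have a value (8354), and 1905 passed. Of 3 members with a value 2 passed upward, OAS2 and BST2. Upward and downward passed 3 and 1 receptor and signalling genes, 0 and 0 brakes, 1 and 1 sensors, and 3 and 2 other factors. Upward passed 3 IFIT group genes, 0 ISG15 genes and 1 dynamin relative, and downward 1 enzyme of deoxynucleotide supply. With the probe set of largest variance 2 oligoadenylate pathway genes passed upward, OAS2 was 1.87 and BST2 was 2.50. With array weights 1 ligand passed upward.

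With the replicate block 0 member probe sets passed downward and 20 upward, with the SAMHD1 probe set at 0.28 (SE 0.073) now passing, and 3615 genes passed upward and 3069 downward. Same-numbered arrays had correlations of deviations of -0.03, -0.016 and -0.105, and differently numbered arrays -0.069 to 0.096. These values cannot show whether same-numbered arrays shared a culture or day, which the labels do not give. Leaving out each array in turn gave 6331 to 6637 genes in all, 7 members upward each time, 0 to 1 member probe sets downward, 0 to 1 ligands upward and 1 to 2 downward, and 1 to 2 brakes upward.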
